A study of Mus musculus with 15 samples.

Results

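Genes of antioxidant defence and glutathione metabolism were compared in the gastrocnemius of the calf, made up mostly of fast-twitch fibres, between mice with and without Cpt1b in skeletal muscle. Members were the rows of the deposited count table whose gene symbol was 1 of 40 listed names. Of these names 39 were in the table of 13602 genes and 38 passed the low-count filter, which left 11062 genes for testing. Prdx6 was not analysed here, and G6pdx, the first enzyme of the pentose phosphate pathway, was counted but too low to test, with 0 to 10 tags per library (34 tags over the controls and 32 over the knockouts). The controls were 8 male mice labelled wild type (floxed), and the knockouts were 7 male mice with a skeletal muscle knockout of Cpt1b, the gene for the muscle form of the carnitine palmitoyltransferase that admits long-chain fatty acids to the mitochondrion. The text of the series and the sample titles give chow as the diet, for 12 to 14 weeks, whereas the diet field reads 45% HFD for every mouse of both groups. Strain, age at dissection, the Cre driver and the deleted part of the gene are not given in the labels. The labels count 1 mouse per library, and each library was taken as 1 animal.

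Antioxidant enzymes work in sequence. Superoxide dismutases turn superoxide, a by-product of respiration, into hydrogen peroxide, and catalase, the glutathione peroxidases and the peroxiredoxins turn hydrogen peroxide into water. Glutathione peroxidases draw their electrons from glutathione, a tripeptide made by glutamate-cysteine ligase and glutathione synthetase, while peroxiredoxins draw theirs mostly from thioredoxin. Both are reduced again at the cost of NADPH. Glutathione transferases join glutathione to reactive molecules such as the aldehydes formed when lipids oxidize. Many of these genes are targets of the transcription factor NRF2 (Nfe2l2), which KEAP1 holds at a low level until oxidants or electrophiles release it.

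Each value is a count of SAGE tags. In this method 1 short stretch per transcript, next to a cutting site towards the 3' end, is read, so a count does not scale with transcript length. Levels of different genes are set beside each other on this basis. Tags shared between genes and the unknown assignment of tags limit such comparisons. Predicted tags are shown for the 3 genes that passed the test, and for the mu-class transferases, which are close paralogs with differences in opposite directions. Each is the 27 bases from the CATG nearest the 3' end of the principal transcript in GENCODE M21 (GRCm38), read 5′ to 3′, with the CATG in capitals. CATG is the usual anchoring site of SAGE, and the labels do not name the enzyme.
Gsta4: CATGtatgcagatggcacccaggacct
Gsto1: CATGtctgaaaactgtgatttccccat
Nqo1: CATGgcgcccagggggttggctctcca
Gstm1: CATGgccccttcttcattggctccctg
Gstm2: CATGagtgctctgctggccctagctct
Gstm5: CATGtgccgttttgaggctttggagaa
The Gsta4 tag lies in coding sequence at chr9:78205918-78205944 on the plus strand. The Gsto1 tag lies in the 3' UTR at chr19:47864719-47864745 on the plus strand, and the Nqo1 tag in the 3' UTR at chr8:107388348-107388374 on the minus strand. All 6 differ from the tag of every other annotated gene by at least 7 bases, so the paralogs Gstm1, Gstm2 and Gstm5 can be told apart by these tags. The Gstm5 tag spans an exon junction (chr3:107898261-107898461). Gstm1 and Gstm5 each have 2 predicted tags over their annotated transcripts, and only the tags shown were compared with other genes. Their separation in the deposited counts was not tested. Among the 40 listed genes 3 share the predicted tag with another gene, and their counts are uncertain: Sod2 with Gm26909, Gpx4 with the pseudogene Gpx4-ps2, and Gstp1 with Gstp2 and the pseudogene Gstp-ps. The Gclm tag differs by 1 base from those of 2 other genes, and the Prdx4 tag by 2 bases from that of Prdx2-rs3. Of the 40 genes 18 have 1 predicted tag over their annotated transcripts. The assignment of tags to genes is not given, so other counts can be uncertain too.

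Total tags ran from 8334436 to 16238258 in controls and from 9390065 to 19397255 in knockouts, and the members together took 0.331% to 0.394% of all tags in controls and 0.371% to 0.430% in knockouts. Control 7 and knockout 4 were the most deeply sequenced library of each group. They stood at 1 end of the leading principal component, which held 44.6% of the variance. Values without both are given for some members whose extremes these libraries were or whose call they decided. They were also the highest of their groups for Prdx1, Txn1, Txnrd2, Gstz1 and Gpx3 and the lowest for Keap1. For these genes no such values are given. Markers of skeletal muscle were abundant in every library, with a summed level of 115500 to 175900 CPM in the controls and 100900 to 161200 CPM in the knockouts over 10 genes. Of these markers 8 had negative differences, with a median log2 difference of -0.20, and 1 fell (Tnnt3, the fast troponin T). Their mean sum was 156300 CPM in the controls and 129100 CPM in the knockouts, and the part of this in the members' values was not tested. Cpt1b itself stood at 7.64 ± 3.17 CPM in the controls (SD, n = 8) and 3.79 ± 1.64 CPM in the knockouts (SD, n = 7), with a log2 difference of -1.03 ± 0.31 (SE, edgeR adjusted p = 0.103). Controls ranged from 4.44 to 13.1 CPM (median 6.51) and knockouts from 1.10 to 6.46 CPM, so the groups overlapped. Knockout 6 was the highest knockout, and every knockout lay below the control median. The Cpt1b tag may lie outside the deleted part, and then its count does not check the genotype labels. Levels are CPM, tags per 1000000 of the TMM-scaled library. Differences are on the log2 scale, knockout minus control, given with the standard error, and adjusted p values are from edgeR's quasi-likelihood test with Benjamini-Hochberg adjustment over all 11062 genes.

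Gsta4, Gsto1 and Nqo1 rose in knockout muscle in the main test. Of 24 alternative analyses, Gsto1 was called higher in each, Gsta4 in 23 and Nqo1 in 17. No member fell in the main test or in any alternative. The genes that rose are 3 of 38 tested members, where 1.67% of all tested genes were called higher and 0.497% lower. The difference was positive in 27 of the 38 members (71.1%), against 50.6% of all genes, and the median log2 difference was 0.15 for members and 0.0047 for all genes. At an unadjusted p under 0.05 there were 10 members higher and 2 lower, where the shares of all genes were 7.65% and 5.92%. Libraries of the 2 groups did not overlap for 1 member, Nqo1, which was higher in knockouts, as were 0.967% of all genes, and for no member in the other direction (0.226% of all genes). The members and the lists formed from them were chosen with earlier results of these data known. Shares given for them here and below describe them and do not test them. The summed level of all tested members was 3747 ± 471 CPM in the controls and 3905 ± 439 CPM in the knockouts, a difference smaller than the spread within either group. Each sample was a whole muscle, in which fewer cells of a type and less RNA per cell cannot be told apart.

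**Figure D1:**
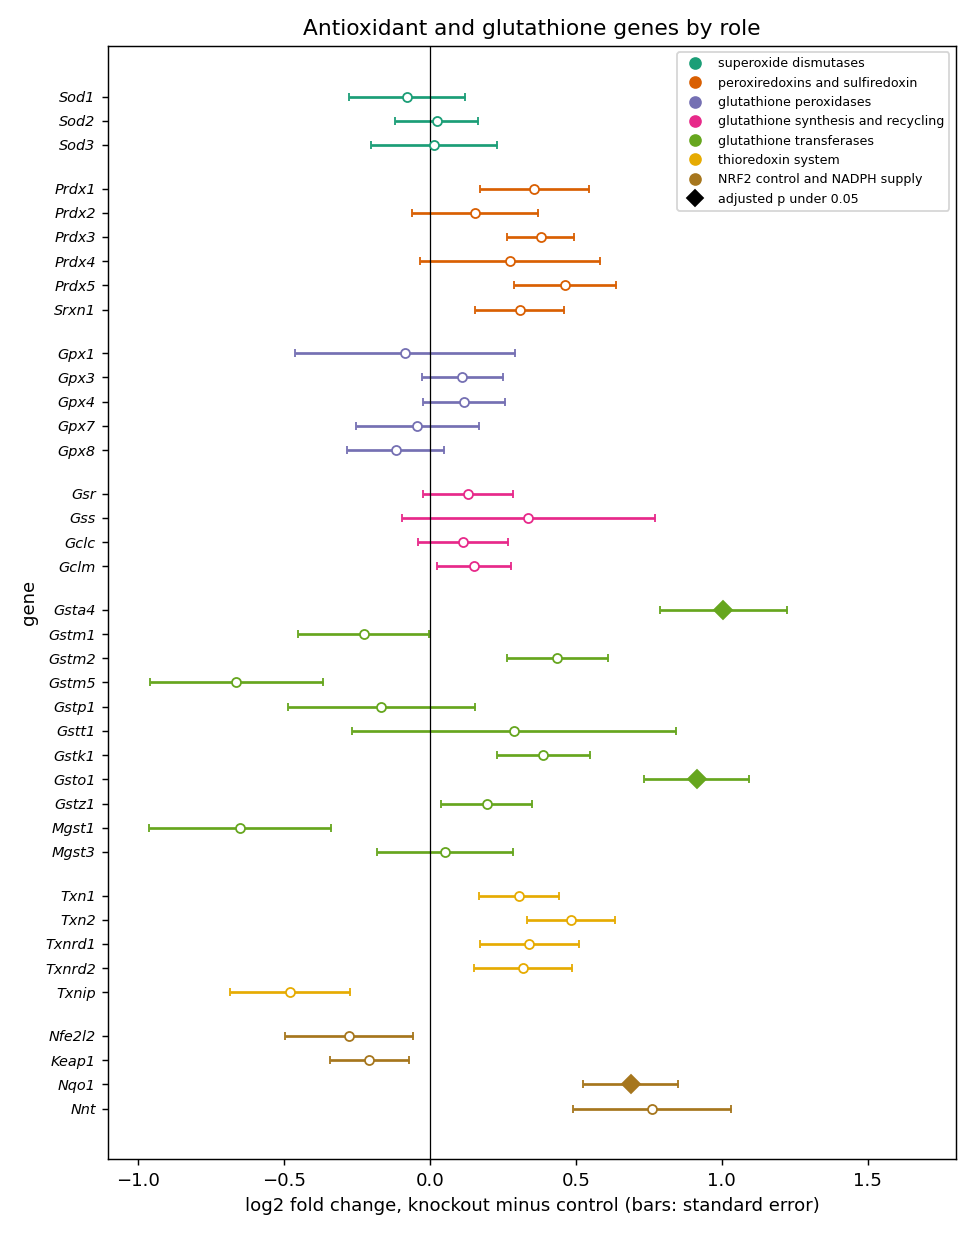
Log2 difference, knockout minus control, for the 38 tested members grouped by role. Points are edgeR estimates, bars are standard errors, and filled diamonds mark the 3 genes with an adjusted p under 0.05 (Gsta4, Gsto1 and Nqo1). The peroxiredoxins lie to the right of 0 and the superoxide dismutases and glutathione peroxidases lie around 0.

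The superoxide dismutases, the entry step of the pathway, did not pass the test in any of the 3 compartments they serve, and none had an unadjusted p under 0.05. Sod1, the copper-zinc enzyme of the cytosol and the most abundant of them, ranged from 186 to 506 CPM in the controls (median 432) and from 224 to 501 CPM in the knockouts (median 382). The lowest library of each group was control 7 and knockout 4, and the ranges overlapped over most of their length. Between groups the log2 difference was -0.08 ± 0.20 (edgeR adjusted p = 0.869), and -0.10 ± 0.14 without those 2 libraries. Sod2, the manganese enzyme of the mitochondrial matrix, had a mean of 153 ± 34.1 CPM in the controls and 156 ± 21.2 CPM in the knockouts (log2 0.02 ± 0.14). Sod3, the secreted enzyme, stood at 40.1 ± 15.4 and 40.4 ± 7.78 CPM (log2 0.01 ± 0.21). With differences this close to 0 the sign was not fixed. It turned for Sod1 without knockout 4 (0.017), and it turned for Sod2 and Sod3 when control 7 and knockout 4 were both left out (-0.013 and -0.052).

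Peroxiredoxins, thiol enzymes that reduce hydrogen peroxide, and sulfiredoxin (Srxn1), which repairs them after overoxidation, had positive differences in all 6 tested genes, with a median log2 difference of 0.33. None passed the test, and 2 of the 6 were higher at an unadjusted p under 0.05, against 7.65% of all genes. Without control 7 and knockout 4 the median was 0.26. Prdx3, the peroxiredoxin of the mitochondrial matrix, ranged from 108 to 162 CPM in the controls (median 138) and from 150 to 214 CPM in the knockouts (median 171). Of the 7 knockout libraries 6 lay above the highest control, and only knockout 6 lay within the control range. The log2 difference was 0.38 ± 0.11 (edgeR unadjusted p = 0.00364, adjusted p = 0.105). Prdx5, which is found in mitochondria, peroxisomes and the cytosol, ranged from 104 to 205 CPM in the controls (median 171) and from 148 to 317 CPM in the knockouts (median 228). Control 7 was the lowest control and knockout 4 the lowest knockout, and 4 knockout libraries lay above every control. Between groups the log2 difference was 0.46 ± 0.17 (edgeR adjusted p = 0.235), and 0.46 ± 0.14 without those 2 libraries.

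Prdx2, a cytosolic peroxiredoxin, was the most abundant member of all, at 600 ± 150 CPM in the controls and 669 ± 225 CPM in the knockouts (log2 0.16 ± 0.22). Prdx1, also mainly cytosolic and an NRF2 target, stood at 164 ± 43.0 and 210 ± 56.9 CPM (log2 0.36 ± 0.19, edgeR adjusted p = 0.410). Srxn1, also an NRF2 target, stood at 8.06 ± 1.28 and 9.93 ± 2.12 CPM (log2 0.31 ± 0.15). For both of these genes knockouts lay mostly in the upper part of the control range or above it. Prdx4, the form of the endoplasmic reticulum, had a mean of 16.3 tags per library, and its log2 difference of 0.28 ± 0.31 was smaller than its error. When the first surrogate variable was added to the fit, Prdx2, Prdx3 and Prdx5 were called higher (edgeR adjusted p = 0.0437, 0.0489 and 0.00251), and DESeq2 called Prdx3 (adjusted p = 0.0243).

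Glutathione peroxidases were close to level between the groups, with 2 of 5 differences positive, a median of -0.04 and none past an unadjusted p of 0.05. Gpx3, the secreted plasma enzyme, was the most abundant at 210 ± 32.1 CPM in the controls and 227 ± 44.2 CPM in the knockouts (log2 0.11 ± 0.14). Gpx4, which reduces lipid peroxides within membranes, stood at 180 ± 32.0 and 195 ± 33.4 CPM (log2 0.12 ± 0.14). Gpx8 and Gpx7, which belong to the endoplasmic reticulum, had log2 differences of -0.12 ± 0.17 and -0.04 ± 0.21. Gpx1, the general cytosolic and mitochondrial enzyme, ranged from 8.77 to 187 CPM in the controls (median 150) and from 66.6 to 169 CPM in the knockouts (median 141). Control 8 alone stood at 8.77 CPM, far below the other 7 controls, of which the lowest was 109 CPM. The log2 difference was -0.08 ± 0.38 (edgeR adjusted p = 0.927) with that library and -0.26 ± 0.19 (edgeR adjusted p = 0.592) without it. The annotated Gpx1 transcripts give 1 predicted tag (chr9:108340193-108340219, 3' UTR).

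The genes that make and recycle glutathione were low, and their sum was even across the libraries. Their summed level was 44.2 ± 4.24 CPM in the controls and 48.7 ± 1.84 CPM in the knockouts, and all 4 differences were positive, with none past the test and none with an unadjusted p under 0.05. Gclc and Gclm are the catalytic and modifier subunits of glutamate-cysteine ligase, the rate-limiting step. Gclm stood at 23.9 ± 2.58 CPM in the controls and 26.6 ± 4.65 CPM in the knockouts (log2 0.15 ± 0.13), and Gclc at 11.9 ± 2.30 and 12.8 ± 2.62 CPM (log2 0.11 ± 0.15). Glutathione reductase, Gsr, had a log2 difference of 0.13 ± 0.15. Gss, glutathione synthetase, was the lowest of all tested members, with 10.1 tags per library, and spread widely, from 0.124 to 1.31 CPM in the controls and from 0.227 to 1.29 CPM in the knockouts, so that its difference of 0.34 ± 0.43 was not detectable at this depth.

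Glutathione transferases held the largest differences in both directions. Of 11 tested, 2 rose, against 1.67% of all genes, and none fell. Differences were positive in 7 (63.6%, against 50.6% of all genes) and ran from -0.66 to 1.00 on the log2 scale. Gsta4 (chr9:78182774-78209349, GRCm38), the alpha-class transferase that conjugates 4-hydroxynonenal, an aldehyde formed from oxidized lipid, ranged from 4.14 to 11.0 CPM in the controls (median 5.98). In knockouts it ranged from 8.46 to 21.6 CPM (median 11.7). All 7 knockouts lay above the control median and 5 lay above the highest control. The highest library of each group was control 7 and knockout 4. The mean rose from 6.55 ± 2.14 to 13.2 ± 4.36 CPM, which is 2.01-fold (log2 1.00 ± 0.22, edgeR adjusted p = 0.0164). Without those 2 libraries the log2 difference was 0.98 ± 0.17 (edgeR adjusted p = 0.00175). Of the 24 alternatives 23 called Gsta4. The call was lost when replicate number was added to the fit as a block, a fit that also left out control 8 (edgeR adjusted p = 0.111).

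Gsto1 (chr19:47854970-47864790, GRCm38), the omega-class transferase, which reduces dehydroascorbate and mixed disulfides rather than conjugating glutathione, ranged from 23.0 to 47.4 CPM in the controls (median 33.4). In knockouts it ranged from 43.5 to 88.0 CPM (median 62.0). Of the 7 knockouts 6 lay above the highest control, and only knockout 6 fell below it. The mean rose 1.88-fold, from 33.6 ± 8.66 to 63.3 ± 15.6 CPM (log2 0.91 ± 0.18, edgeR adjusted p = 0.00767). Gsto1 was the member with the smallest adjusted p and was called in each of the 24 alternatives (adjusted p 0.000174 to 0.0345).

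The mu-class transferases, which are neighbours on chromosome 3, did not share a direction. Gstm5, by far the most abundant transferase at the tag level, ranged from 117 to 434 CPM in the controls (median 368) and from 94.7 to 302 CPM in the knockouts (median 184). All 7 knockouts lay below the control median, while controls 3 and 7 lay within the knockout range. Between groups the log2 difference was -0.66 ± 0.30 and did not pass over all genes (edgeR unadjusted p = 0.0380, adjusted p = 0.335), and without control 7 and knockout 4 it was -0.67 ± 0.22. Gstm2 stood at 22.2 ± 5.11 CPM in the controls and 30.1 ± 6.46 CPM in the knockouts (log2 0.44 ± 0.17, edgeR adjusted p = 0.273). Gstm1, a known NRF2 target, stood at 28.0 ± 10.4 and 23.8 ± 7.14 CPM (log2 -0.23 ± 0.22). Gstm5 made up 56.6% ± 10.3 of the summed transferase level in controls and 41.5% ± 12.7 in knockouts. The sum of all 11 transferases was 565 ± 137 CPM in the controls and 489 ± 66.2 CPM in the knockouts. Without Gstm5 it was 233 ± 21.7 CPM in the controls (207 to 264) and 280 ± 30.7 CPM in the knockouts (255 to 344). The sum without Gstm5 was chosen after its values were seen.

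Mgst1, a membrane-bound transferase of the endoplasmic reticulum and the outer mitochondrial membrane, ranged from 9.66 to 44.6 CPM in the controls (median 26.0) and from 9.19 to 28.9 CPM in the knockouts (median 17.6). The lowest library of each group was again control 7 and knockout 4, and 6 of 7 knockouts lay below the control median. The log2 difference was -0.65 ± 0.31 (edgeR adjusted p = 0.372), and -0.68 ± 0.26 without those 2 libraries. Both Gstm5 and Mgst1 were closer to 0 when the first surrogate variable was in the fit, at -0.25 ± 0.10 and -0.19 ± 0.17. Fibroblast markers were also lower in sum. Over 6 of 6 markers tested, all of them detected, their summed level was 2176 to 3848 CPM in the controls and 1231 to 3083 CPM in the knockouts. None was called, 3 were lower at an unadjusted p under 0.05, 2 of the 6 had positive differences, and the median log2 difference was -0.27. Medians of other marker lists were -0.44 for satellite cells, -0.23 for endothelium, -0.22 for erythroid cells and -0.17 for macrophages. They were -0.08 for Schwann cells, -0.05 for adipocytes and 0.30 for smooth muscle. Of the 6 adipocyte markers 1 was called lower, against 0.497% of all genes, and 3 had positive differences. The summed level of the adipocyte markers was 42.5 to 109 CPM in the controls and 31.1 to 196 CPM in the knockouts. The part of any of these cell types in the values of Gstm5 and Mgst1 was not tested.

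The remaining transferases did not pass. Gstk1, the kappa-class enzyme of mitochondria and peroxisomes, stood at 29.7 ± 7.45 CPM in the controls and 38.9 ± 6.38 CPM in the knockouts (log2 0.39 ± 0.16, edgeR adjusted p = 0.285). All 7 knockouts lay above the control median and 2 above the highest control. Gstz1, which also acts in tyrosine breakdown as maleylacetoacetate isomerase, had a log2 difference of 0.19 ± 0.15, Mgst3 of 0.05 ± 0.23 (-0.23 ± 0.13 without control 7 and knockout 4) and the pi-class Gstp1 of -0.17 ± 0.32. Gstt1, of the theta class, was carried by 1 library in each group. Control 7 stood at 11.9 CPM against 1.37 to 3.83 CPM in the other controls, and knockout 4 at 12.5 CPM against 0.896 to 4.19 CPM in the other knockouts. Its log2 difference of 0.29 ± 0.56 was 1.04 without control 7, -0.41 without knockout 4 and 0.34 ± 0.32 without both, and it passed in none of these fits.

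**Figure D2:**
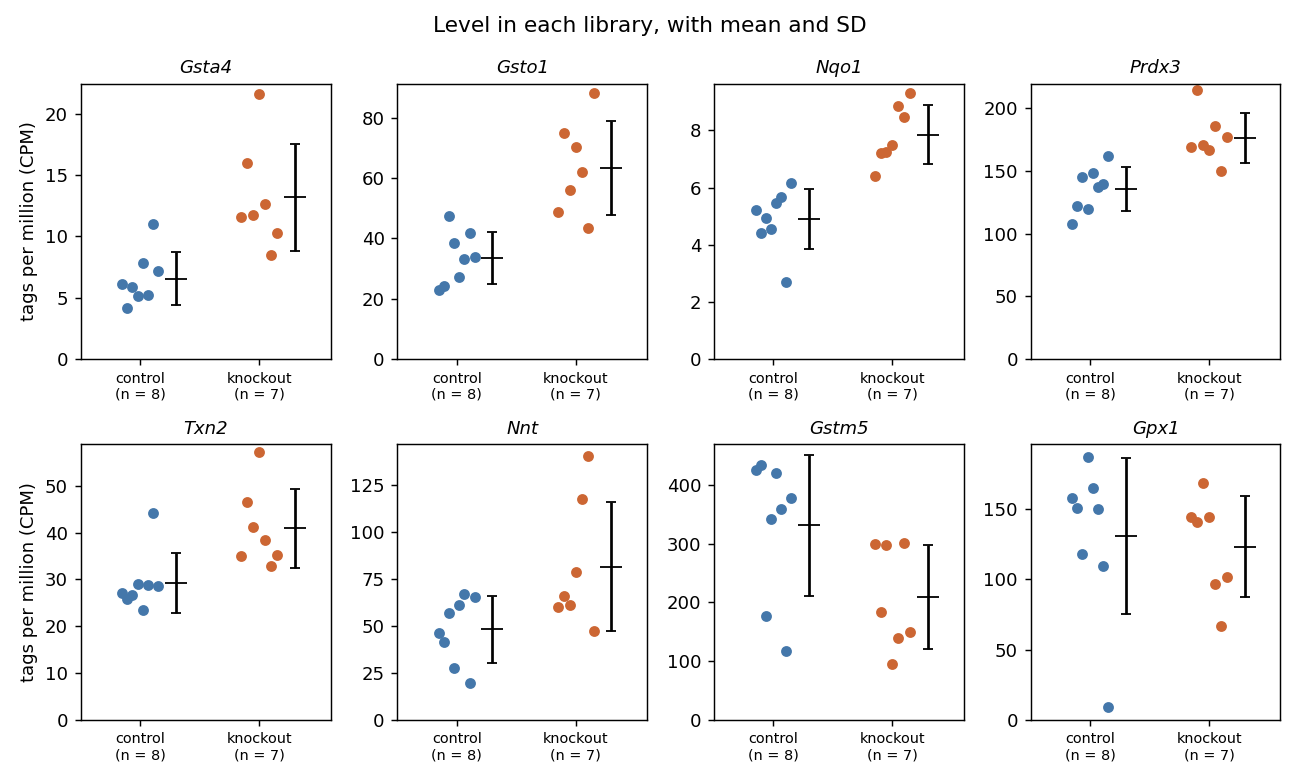
Level in CPM of 8 members in each library, with the group mean and SD beside the points (8 controls, 7 knockouts, each axis from 0). Knockouts lie apart from controls for Nqo1 and mostly above them for Gsta4, Gsto1 and Prdx3, while the single low control of Gpx1 (8.77 CPM) and the split controls of Gstm5 are visible.

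The thioredoxin system, which feeds electrons to the peroxiredoxins, had 4 of 5 positive differences and a median of 0.32. None passed the test. Txn2, the thioredoxin of mitochondria, ranged from 23.5 to 44.2 CPM in the controls (median 27.8) and from 33.0 to 57.1 CPM in the knockouts (median 38.4). All knockouts lay above 7 of the 8 controls, and control 7 alone lay within the knockout range. Between groups the log2 difference was 0.48 ± 0.15 (edgeR unadjusted p = 0.00464, adjusted p = 0.118). Txn2 was called higher without control 7 (log2 0.60, edgeR adjusted p = 0.0133) and without control 7 and knockout 4 (log2 0.49 ± 0.11, edgeR adjusted p = 0.0151). Its reductase Txnrd2 stood at 4.71 ± 1.04 CPM in the controls and 5.89 ± 1.14 CPM in the knockouts (log2 0.32 ± 0.17), with every knockout above the control median.

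In the cytosol Txn1 stood at 108 ± 21.6 CPM in the controls and 133 ± 16.1 CPM in the knockouts (log2 0.31 ± 0.14, edgeR adjusted p = 0.337), and its reductase Txnrd1 at 206 ± 40.7 and 260 ± 68.3 CPM (log2 0.34 ± 0.17, edgeR adjusted p = 0.387). For each of them 6 of 7 knockouts lay above the control median. Txnip, which binds and inhibits thioredoxin and is known to respond to glucose, differed in the other direction. It ranged from 262 to 537 CPM in the controls (median 377) and from 120 to 366 CPM in the knockouts (median 311). Every knockout lay below the control median and knockout 4 was the lowest, but the ranges overlapped. The log2 difference was -0.48 ± 0.21 (edgeR unadjusted p = 0.0317, adjusted p = 0.315), and without control 7 and knockout 4 it was -0.38 ± 0.16.

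Of the genes of NRF2 control and NADPH supply, 1 of 4 rose, against 1.67% of all genes. Nqo1 (chr8:107388225-107403206, GRCm38), the quinone reductase and a classical NRF2 target, ranged from 2.71 to 6.17 CPM in the controls (median 5.07) and from 6.41 to 9.31 CPM in the knockouts (median 7.48). All 7 knockouts lay above all 8 controls, with control 8 and knockout 1 closest to each other and control 7 the lowest. The mean rose 1.61-fold, from 4.89 ± 1.05 to 7.85 ± 1.04 CPM (log2 0.69 ± 0.16, edgeR adjusted p = 0.0288), from 79.1 tags per library on average. The call was near the threshold and was lost without control 2 or 4 (edgeR adjusted p = 0.0609 and 0.0589). It was also lost without knockout 2, 5, 6 or 7 (edgeR adjusted p = 0.0570, 0.0635, 0.0514 and 0.0735). With replicate number as a block in the fit and control 8 left out, it was lost as well (edgeR adjusted p = 0.121). Over all fits without 1 library the value lay between 0.59 and 0.74, and without control 7 and knockout 4 it was 0.59 ± 0.14 (edgeR adjusted p = 0.0204).

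Nfe2l2, the gene for NRF2 itself, was low, at 2.11 ± 0.586 CPM in the controls and 1.75 ± 0.401 CPM in the knockouts (log2 -0.28 ± 0.22, edgeR adjusted p = 0.591). Keap1, its inhibitor, stood at 92.0 ± 14.5 and 79.7 ± 13.0 CPM (log2 -0.21 ± 0.14, edgeR adjusted p = 0.520), with every knockout below the control median. Neither passed the test. NRF2 is regulated mainly at the level of the protein, which these counts do not measure.

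Nnt, the mitochondrial transhydrogenase that makes NADPH from NADH, ranged from 19.5 to 67.0 CPM in the controls (median 51.5) and from 47.2 to 141 CPM in the knockouts (median 65.8). Knockouts 4, 5 and 6 lay above every control, and the other 4 lay within the control range. Between groups the log2 difference was 0.76 ± 0.27 (edgeR unadjusted p = 0.0118, adjusted p = 0.201). The inbred strain C57BL/6J is known to carry a deletion within Nnt. The labels give no strain, and the predicted tag lies in the 3' UTR (chr13:119335759-119335785, minus strand).

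**Figure D3:**
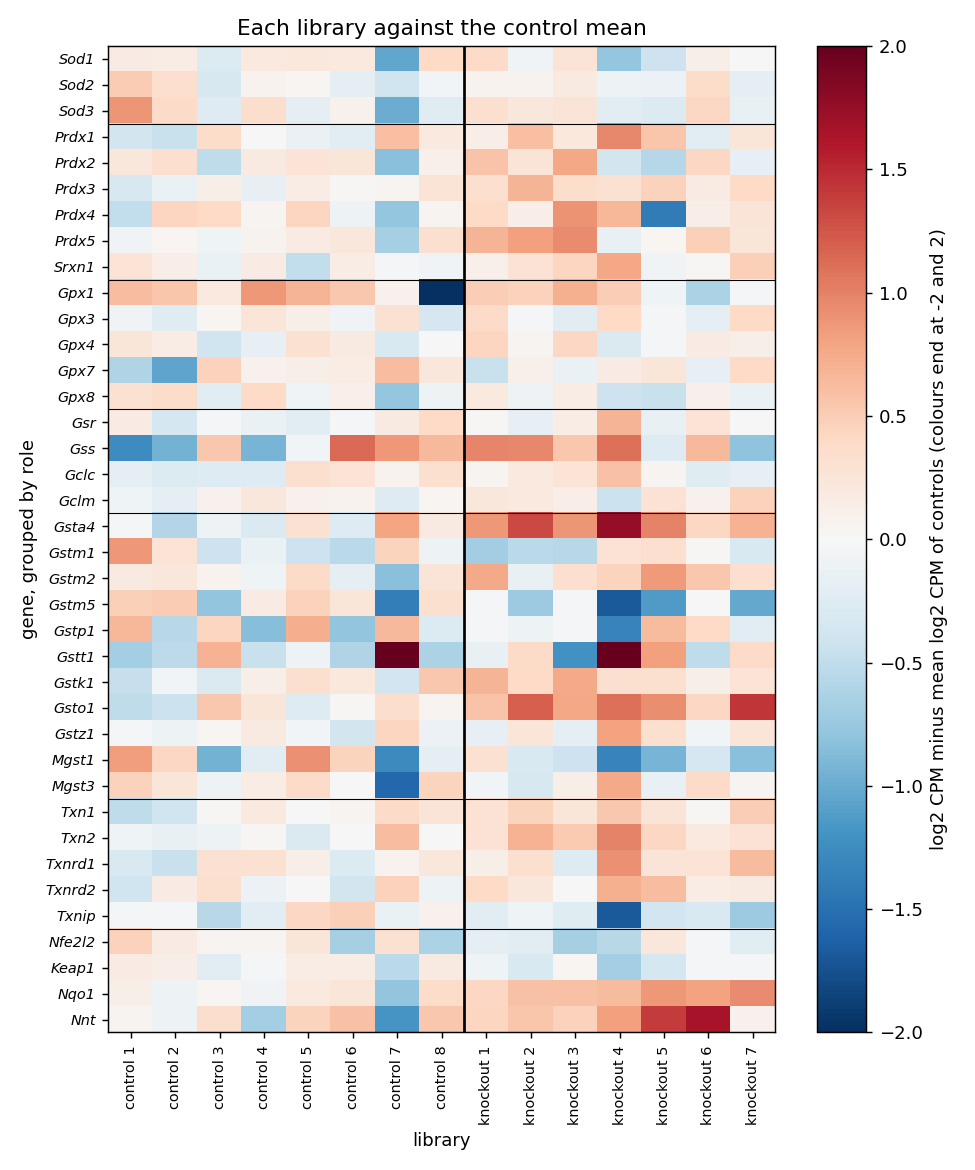
Log2 CPM of each member in each library minus the mean of the 8 controls, with genes in rows by role and libraries in columns (the vertical line parts controls from knockouts). Nqo1, Gsto1 and Gsta4 are above the control mean in each knockout, and control 7 and knockout 4 share low Gstm5 and Mgst1 and high Gstt1.

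Grouped by place in the cell, the 7 members listed as mitochondrial (Sod2, Prdx3, Prdx5, Txn2, Txnrd2, Nnt and Gstk1) had positive differences in 7 of 7, with a median log2 difference of 0.39. Of all genes 50.6% had positive differences. Among the 7 members, 5 were higher at an unadjusted p under 0.05, against 7.65% of all genes, and none passed over all genes. This list was chosen with earlier results of these data known, so its shares describe it and do not test it. The summed level of the 7 members ranged from 449 to 652 CPM in the controls and from 628 to 819 CPM in the knockouts, so the groups overlapped only narrowly. The mean of the sum was 567 ± 60.9 CPM in the controls and 729 ± 80.2 CPM in the knockouts. Without control 7 and knockout 4 the difference was positive in 6 of 7, since that of Sod2 was then -0.013. Gpx1 (-0.08) and Mgst1 (-0.65), which are found partly in mitochondria, are not on this list, although Prdx5 and Gstk1, also found elsewhere, are. With Gpx1 and Mgst1 added, a choice made after the values were seen, 7 of 9 differences were positive, with a median of 0.38. Slow-fibre markers, which mark fibres rich in mitochondria, had differences of the same sign. All 6 had positive differences with none called, 3 had an unadjusted p under 0.05, and their summed level was 999 to 3388 CPM in the controls and 1625 to 3437 CPM in the knockouts. Their part in the mitochondrial values was not tested. The 7 members that are secreted or belong to the endoplasmic reticulum had 4 positive differences and a median of 0.01.

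Of 12 members known as NRF2 targets 11 were tested, and 2 rose (Nqo1 and Gsta4), against 1.67% of all genes. Differences were positive in 9 (81.8%, against 50.6% of all genes), with a median of 0.31. As with the other lists, the choice was made with earlier results known, and these shares do not test the list. Without control 7 and knockout 4 the median of these targets was 0.20, with 10 positive. Their summed level was 571 ± 93.0 CPM in the controls (434 to 692) and 709 ± 136 CPM in the knockouts (577 to 968). Gstm1 and Gstp1 were the members of this list with negative differences. NRF2 binds the antioxidant response element, whose core is TGACNNNGC. This core was searched on both strands of RefSeq promoter windows (GRCm38.p6), from 250 bases before to 50 bases after each start. It was found in 9 of 34 members with a window (26.5%) and in 5 of 9 of the NRF2 targets among them (55.6%), against 14.0% of all 27025 symbols. Of the 9 members with the core 8 were tested, and their differences were positive in 4 (Prdx1, Srxn1, Gclm and Txnrd1) and negative in 4 (Gstm5, Mgst1, Nfe2l2 and Sod1). The other member with the core was G6pdx. The windows around the core are shown for the 4 with positive differences, which are NRF2 targets, and for Gstm5 and Mgst1, which had the most negative differences of all members. The core is in capitals as it reads on the gene's own strand.
Prdx1: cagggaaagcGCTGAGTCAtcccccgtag
Srxn1: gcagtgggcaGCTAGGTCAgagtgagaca
Gclm: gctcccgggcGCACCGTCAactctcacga
Txnrd1: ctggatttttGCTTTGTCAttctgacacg
Gstm5: caccgcccacTGACCACGCggagggcggg
Mgst1: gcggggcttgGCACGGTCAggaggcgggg
The core lies on the gene's own strand for Gstm5 (chr3:107895802-107895830) and on the opposite strand for the other 5. Their windows are at chr4:116685456-116685484 for Prdx1, chr2:152105542-152105570 for Srxn1, chr3:122245413-122245441 for Gclm, chr10:82859104-82859132 for Txnrd1 and chr6:138140461-138140489 for Mgst1. None of these 6 genes passed the test. Among the genes that rose, the windows of Nqo1 and Gsto1 hold no match, which says only that these letters are not in those 300 bases, and Gsta4 had no window. A match is a description of the sequence and not a measured site of binding.

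Among other genes listed with these pathways, 84 were tested, of which 5 rose and 1 fell, against 1.67% and 0.497% of all genes. The lists were chosen with earlier results of these data known, so these shares describe the lists and do not test them. Differences were positive in 55 of the 84 (65.5%), with a median of 0.08. Catalase (Cat), the peroxisomal enzyme that breaks down hydrogen peroxide, ranged from 19.3 to 33.6 CPM in the controls and from 59.4 to 84.1 CPM in the knockouts, without overlap. It rose 2.80-fold (log2 1.49 ± 0.13, edgeR adjusted p = 1.26e-06), which is a larger fold than that of any member. Ucp3, an uncoupling protein of the mitochondrial inner membrane that was listed with catalase, rose from 190 ± 74.4 to 434 ± 160 CPM (log2 1.19 ± 0.27, edgeR adjusted p = 0.0219). The call of Ucp3 was lost without knockout 2 or knockout 7 (edgeR adjusted p = 0.0512 and 0.0545).

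Genes of glutathione turnover went both ways. Oplah, the 5-oxoprolinase that returns 5-oxoproline to glutamate in the gamma-glutamyl cycle, rose from 8.34 ± 1.72 to 13.9 ± 2.38 CPM (log2 0.73 ± 0.15, edgeR adjusted p = 0.0117), with 6 of 7 knockouts above the highest control. Oplah was called in 23 of 24 alternatives and not with the replicate block (edgeR adjusted p = 0.076). Lancl1, a glutathione-binding protein, was the only gene of these lists that fell. It ranged from 172 to 436 CPM in the controls (median 368) and from 71.5 to 199 CPM in the knockouts (median 147), so that all knockouts lay below the control median, and the log2 difference was -1.27 ± 0.22 (edgeR adjusted p = 0.00304). The list holds 19 tested genes of glutathione turnover and transport, of which 14 had positive differences.

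Of 28 tested genes on the list of further NRF2 targets and NADPH genes 2 rose, against 1.67% of all genes, and none fell. Differences were positive in 20 (71.4%, against 50.6% of all genes), with a median of 0.10. At an unadjusted p under 0.05, 4 were higher and 2 lower, where the shares of all genes were 7.65% and 5.92%. The genes that rose were Cbr3, a carbonyl reductase, and Aox1, an aldehyde oxidase. Cbr3 rose from 0.824 ± 0.425 to 2.24 ± 0.917 CPM (log2 1.41 ± 0.32, edgeR adjusted p = 0.0253), from 19.3 tags per library. Aox1 rose from 6.07 ± 0.976 to 9.77 ± 2.83 CPM (log2 0.69 ± 0.17, edgeR adjusted p = 0.0439). Both calls depended on single libraries and on the analysis. That of Cbr3 was lost without control 1 or 4 or knockout 4 or 6 (edgeR adjusted p 0.0514 to 0.0541), and that of Aox1 without each library but control 7 or knockout 6 (edgeR adjusted p 0.0542 to 0.106). Without control 7 and knockout 4 together neither passed, with log2 differences of 1.19 and 0.55 (edgeR adjusted p = 0.0577 and 0.0580). Aox1 was also lost under library size alone (edgeR adjusted p = 0.0516) and limma voom (adjusted p = 0.0584), and was called in 7 of 24 alternatives. Cbr3 was called in 17 of the 23 alternatives that tested it. The glutaredoxins and thioredoxin-like genes had none of 9 called, the further transferases and peroxidases none of 10, and the list of selenoproteins, methionine sulfoxide reductases, sestrins and metallothioneins none of 13.

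**Figure D4:**
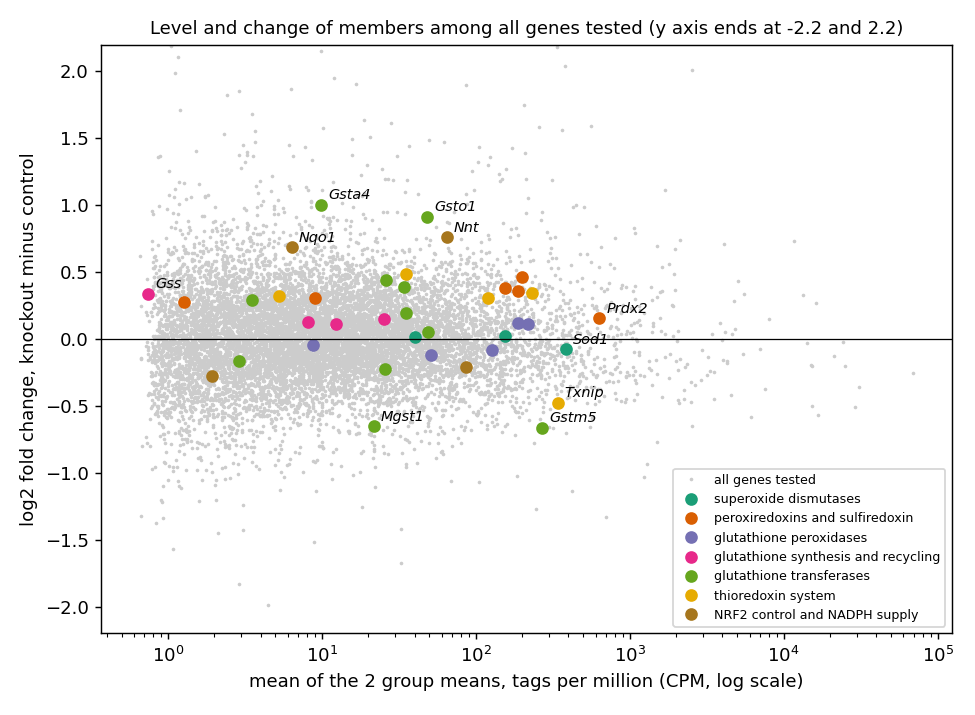
Log2 difference against mean level (CPM, log axis) for all 11062 tested genes (grey) and the 38 tested members (coloured by role). The difference axis is cut, and over all tested genes the differences ran from -3.90 to 3.74. Members run from Gss (0.635 CPM in the controls) to Prdx2 (600 CPM). Of the members Gsta4, Gsto1, Nnt and Nqo1 had the highest differences and Gstm5 and Mgst1 the lowest.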

How the data were processed

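SOLiD SAGE libraries from total RNA were sequenced, per the labels' protocols. The authors deposited raw tag counts per gene symbol for 15 libraries, which were used for every test, and a table of normalized values, which was not used. The submitters' processing notes name DESeq2, without its version, and the builds mm10 and GRCm38.p1. The aligner and the assignment of tags to genes are not given in the sources used here. Columns were matched to samples by the sample descriptions and grouped by genotype.

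Tests on the counts used edgeR 4.0.16 under R 4.3.3 (filterByExpr with its minimum count of 10, TMM scaling, robust quasi-likelihood test, group as the only term, Benjamini-Hochberg threshold 0.05). The biological coefficient of variation was 0.291. For Cpt1b an exact permutation test over 6435 splits was run as well (two-sided p = 0.00389). The code was tested on simulated data. No library pair within a group agreed within sampling noise. Alternatives used DESeq2 1.42.0, limma 3.58.1 and sva 3.50.0, and other scalings, filters and left-out libraries.

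All members, the other pathway genes with an adjusted p under 0.05 (up to 12) and Cpt1b are named. Members and lists were chosen with earlier results of these data known. P values measure the spread between these libraries.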

Additional observations from a re-analysis of the deposited data

Results flagged for a closer look

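In 5 of 90 groups of libraries tested, 1 library stood apart from the rest by Dixon's criterion, which chance meets in about 1 of 20 groups. Gpx1 was 8.77 CPM in control 8, where the next lowest control was 109 CPM. Gstt1 was 11.9 CPM in control 7, where the next highest control was 3.83 CPM, and 12.5 CPM in knockout 4, where the next highest knockout was 4.19 CPM. Mgst3 was 14.8 CPM in control 7, where the next lowest control was 41.5 CPM. Txn2 was 44.2 CPM in control 7, where the next highest control was 29.1 CPM. Of the 5 values 4 came from control 7 or knockout 4, the 2 libraries at the end of the leading principal component.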

How the results depend on the processing

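Over 24 alternatives the members kept direction and call in 863 of 910 comparisons, with 33 changes of sign, 8 lost calls and 6 gained. The log2 values that changed sign were Sod3 under RLE scaling (-0.0026), Gpx1 and Gpx7 under limma voom (0.20 and 0.00050) and Gpx7 with the replicate block (0.039). Without control 7 and knockout 4 they were Sod2 (-0.013), Sod3 (-0.052), Gpx7 (0.024), Gstp1 (0.087) and Mgst3 (-0.23). With the first surrogate variable they were Sod1 (0.17), Gpx8 (0.080) and Gstt1 (-0.36). Over the fits without 1 library, Sod1 ran from -0.18 to 0.017, Sod2 from -0.036 to 0.11, Sod3 from -0.091 to 0.17, Gpx1 from -0.26 to 0.023, Gpx7 from -0.15 to 0.058, Gstt1 from -0.41 to 1.04 and Mgst3 from -0.084 to 0.11.

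Replicate numbers did not pair the libraries (correlations of same-numbered deviations from -0.45 to 0.31, above 0.1 in 3 of 7 pairs, 0 of 7 best with their own number). The replicate block was fitted on replicates 1 to 7, so control 8 was left out. In that fit 1 member was called higher (Gsto1), 2 other pathway genes were called higher, and over all genes 98 were called higher and 19 lower. Members called higher were 6 with the surrogate variable (Prdx2, Prdx3 and Prdx5 besides the 3) and 2 to 4 without 1 library. Other pathway genes called higher were 3 without control 7 and knockout 4, and 3 to 7 without 1 library. Those called lower were 2 with DESeq2, 2 without control 7 and knockout 4, 3 with the surrogate variable, and 1 to 3 without 1 library. Cpt1b was past the threshold with DESeq2 (log2 -1.03, adjusted p = 0.0314), without control 7 and knockout 4 (-0.94, edgeR adjusted p = 0.0432) and with the surrogate variable (-0.79, edgeR adjusted p = 0.0348), and ran from -1.20 to -0.86 without 1 library. Over all genes, the counts called higher and lower were 185 and 55, against 305 and 144 with DESeq2, 350 and 143 with the surrogate variable, 255 and 148 without control 7 and knockout 4, and 311 and 154 without control 7. Without 1 other library the counts were 131 to 191 higher and 30 to 62 lower. The cause of these differences was not tested. Gss, Prdx4, Cbr3 and Nfe2l2 rest on 10.1 to 24.3 tags per library, which limits what their values show.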
